A study of Mus musculus with 23 samples.

Results

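The metabotropic glutamate receptors are G protein-coupled receptors that tune, rather than carry, fast excitatory transmission. Group I receptors couple to Gq and phospholipase C and sit mostly on the postsynaptic side of glutamate synapses. Group II and group III receptors couple to Gi/o, lower cAMP and mostly restrain transmitter release, and Grm3 is also found on astrocytes. The 6 genes described here were the rows of the hippocampal FPKM table (fragments mapped to a gene, scaled to transcript length and to library depth) with the symbols Grm5 of group I, Grm2 and Grm3 of group II, and Grm4, Grm7 and Grm8 of group III. They were 6 of 19733 genes in the table, they were picked by name and not by their values, and all 6 passed the filter on low values. The other two genes of the family were not analysed here.

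Hippocampal RNA was measured in 23 male wild-type C57BL/6J mice, with 1 library per mouse. The 9 Ctrl mice received a control liquid diet and the gavage vehicle, the 7 EtOH mice an alcohol liquid diet and the same vehicle, and the 7 EtOH-UA mice the alcohol diet with urolithin A, a gut microbial metabolite of ellagitannins, at 200 mg/kg per day. Mice were 6 weeks old when acquired, treatment lasted 16 weeks, and a week of behavioral testing came before the tissue was taken. All 3 groups were therefore gavaged daily and tested behaviorally, and no group without gavage or with urolithin A alone was analysed here.

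Read totals were not given with the FPKM values. A step analysis of low values in 24 genes with a single transcript gave 16.1 fragments per kilobase at 1 FPKM as the median gene. With each gene's longest coding transcript, this came to 5909 fragments per mouse for Grm5 but only 202 for Grm4 and 143 for Grm8, with a counting error of 1.30%, 7.04% and 8.36% of the mean. The coefficient of variation over the 23 mice was 14.5% for Grm5, 28.1% for Grm4 and 22.4% for Grm8. With the shortest coding transcript instead, the counting error was 1.97% for Grm5 and 8.75% for Grm4, still below the spread between mice, but 22.5% for Grm8 and 10.3% for Grm7, as large as their spread. These counting errors cover sampling of fragments only.

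Of the 23 libraries, 3 stood apart. Markers of dentate granule cells (Prox1, C1ql2, Dsp, Tdo2, Stxbp6 and Dock10), averaged as a score of log2 deviations from the group mean, were lowest in 1 Ctrl mouse at -1.17, where Dsp was 1.14 FPKM against 4.94 to 10.53 FPKM in the other Ctrl mice. Among EtOH-UA mice, the library with a summed FPKM of 379518 had a granule score of -0.81, and the one with the highest summed FPKM of all, 404609, also held the highest Ttr, at 7704.77 FPKM. Ttr, the leading marker of choroid plexus, ranged from 3.88 FPKM upward. All 10 marker lists, for neurons, glia and neighbouring tissue, had 6 of 6 genes in the table and no gene at 0 in any mouse. For choroid plexus some values were close to 0, with lows of 0.02 FPKM for Slc4a5 and 0.04 FPKM for Folr1. Values above 0 thus do not show that this tissue was present in every mouse.

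Promoter sequences were read for the receptors whose levels are compared with one another below, so that their start regions can be seen side by side. RefSeq windows of 300 bases on GRCm38.p6, from 250 bases before to 50 bases after an annotated start, were found for 4 of the 6 genes: Grm2, Grm3, Grm7 and Grm8. The following are the windows of the group II pair and of the CpG-rich and the CpG-poor start of Grm8, written 5′ to 3′ on the coding strand, with the GC box GGGCGG in capitals.
Grm2, chr9:106656060-106656359, minus strand: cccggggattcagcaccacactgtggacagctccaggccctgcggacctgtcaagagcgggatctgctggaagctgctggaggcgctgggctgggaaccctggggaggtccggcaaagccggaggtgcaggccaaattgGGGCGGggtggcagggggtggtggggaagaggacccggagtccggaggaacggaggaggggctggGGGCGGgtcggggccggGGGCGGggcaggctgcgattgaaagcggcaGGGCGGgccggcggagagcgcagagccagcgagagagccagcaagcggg
Grm3, chr5:9725303-9725602, minus strand: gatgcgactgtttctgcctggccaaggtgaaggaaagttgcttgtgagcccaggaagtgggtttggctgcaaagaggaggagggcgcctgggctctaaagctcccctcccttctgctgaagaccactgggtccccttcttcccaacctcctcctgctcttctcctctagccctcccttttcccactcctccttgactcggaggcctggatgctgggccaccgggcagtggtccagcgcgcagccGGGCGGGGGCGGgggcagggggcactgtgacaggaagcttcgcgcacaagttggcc
Grm8, chr6:28135097-28135396, minus strand: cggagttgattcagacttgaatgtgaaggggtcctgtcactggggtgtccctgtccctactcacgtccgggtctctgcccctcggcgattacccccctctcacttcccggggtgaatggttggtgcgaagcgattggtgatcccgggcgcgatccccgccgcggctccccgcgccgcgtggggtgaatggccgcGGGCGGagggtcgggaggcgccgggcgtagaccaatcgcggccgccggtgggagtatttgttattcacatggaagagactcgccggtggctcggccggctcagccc
Grm8, chr6:28126377-28126676, minus strand: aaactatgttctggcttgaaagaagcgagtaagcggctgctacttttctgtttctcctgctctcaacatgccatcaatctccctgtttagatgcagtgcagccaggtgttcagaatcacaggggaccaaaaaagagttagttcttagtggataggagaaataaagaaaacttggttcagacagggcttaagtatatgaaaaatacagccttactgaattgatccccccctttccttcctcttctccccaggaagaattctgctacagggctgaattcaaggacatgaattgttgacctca

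The Grm2 window held 22 CpG and 4 GC boxes at 72.0% GC, and the Grm3 window 11 CpG and 2 adjoining GC boxes at 63.7% GC. The distal Grm8 start had 33 CpG and 1 GC box, whereas the downstream start had 2 CpG and none, at 43.3% GC. A GC box on either strand was found in 35.7% of 32851 promoter windows of the same length. The windows of all 4 genes held no cAMP response element TGACGTCA (1.79% of all windows), no E-box CAGCTG (16.3%) or CAGATG (17.2%) and no TATA box TATAAA (13.6%), on either strand. These matches are descriptions of the letters, and FPKM summed over starts cannot show which start a gene used.

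The receptor genes differ widely in length, and only Grm7 and Grm8 of the 6 share a chromosome. In the RefSeq annotation of GRCm38.p6, Grm7 (chr6:110645349-111567230, plus strand) and Grm8 (chr6:27275121-28135146, minus strand) span 922 and 860 kb, and Grm5 (chr7:87583981-88135063, plus strand) 551 kb. Grm3 (chr5:9485236-9725352, minus strand) and Grm4 (chr17:27422387-27513826, minus strand) span 240 and 91.4 kb. Grm2 (chr9:106644534-106656109, minus strand) is the most compact, at 11.6 kb. GENCODE places an antisense gene across the last bases of Grm2 and another across the first bases of Grm7. Neither is a row of the table, and since the counting was not stated to use strand, reads of a gene and of an antisense partner could not be told apart there.

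Levels within the family differed widely. FPKM is per length, so levels could be set side by side, and in Ctrl mice they ran Grm5, Grm7, Grm2, Grm3, Grm4, Grm8 from highest to lowest. Grm5 alone made up 52.9% of the summed FPKM of the 6 genes on average over the 23 mice, with a range of 45.5 to 62.4%, followed by Grm7 at 17.6%, Grm2 at 13.7%, Grm3 at 9.98%, Grm4 at 3.16% and Grm8 at 2.68%. The mean of Grm5 stood at the 91.9 percentile of all genes and that of Grm8 at the 42.1 percentile.

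In Ctrl mice, Grm5 was 3.06-fold higher than Grm7 in 9 of 9 mice (two-sided exact sign permutation test, p = 0.00391, the smallest that 9 pairs allow, adjusted p = 0.00651 over 5 neighbouring pairs). The same exact p and adjusted p were obtained for Grm7 above Grm2 by 1.35-fold and for Grm3 above Grm4 by 2.98-fold, each in 9 of 9 mice. Grm2 was 1.33-fold higher than Grm3 in 8 of 9 mice (exact p = 0.0117, adjusted p = 0.0146). Grm4 and Grm8 did not differ beyond their spread in Ctrl mice, with a 1.12-fold difference in the order given in 6 of 9 mice (exact p = 0.168). The order, and so the pairs and their directions, came from the means of these same 9 mice. These tests cover the spread between mice, not the transcript lengths behind FPKM. Over all 23 mice the full order was seen in 17 and the order of the first 4 genes in 21. In EtOH mice all 5 neighbours differed, Grm4 and Grm8 included (1.28-fold, exact p = 0.0312 for 7 mice, adjusted p = 0.0312). In EtOH-UA mice the step from Grm7 to Grm2 was 1.17-fold (exact p = 0.0469, adjusted p = 0.0586) and that from Grm4 to Grm8 1.11-fold (exact p = 0.297). Whether these steps differed between groups was not tested.

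**Figure D1:**
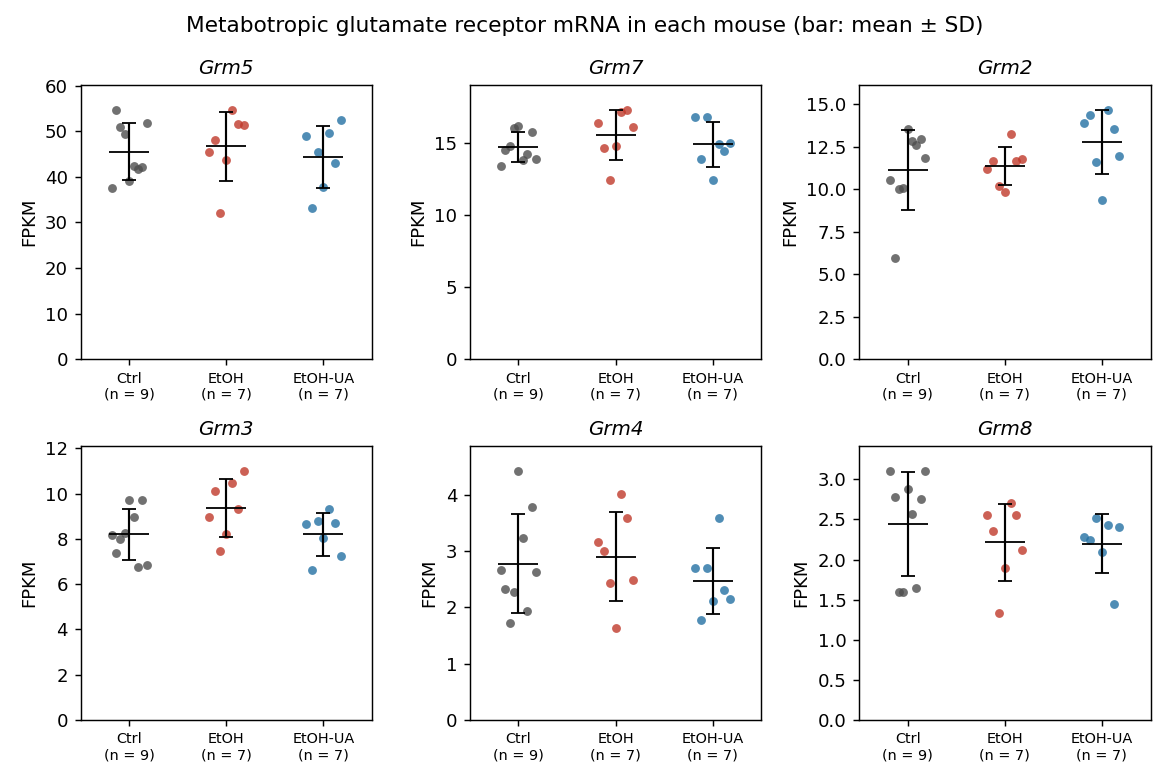
FPKM of each receptor gene (vertical axis, from 0, with its own scale per panel) in every mouse of the Ctrl (n = 9), EtOH (n = 7) and EtOH-UA (n = 7) groups, where each point is 1 mouse and the bars give the mean ± SD. The groups overlapped for every gene, and the low point of Grm2 in the Ctrl group is the mouse at 5.93 FPKM.

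Whether the alcohol diet changed receptor mRNA was asked by setting EtOH mice against Ctrl mice. No receptor gene passed an adjusted p of 0.05 (limma on log2(FPKM + 0.1), Benjamini-Hochberg over 15985 genes), against a background of 0% of all genes tested. At an unadjusted p under 0.05, 1 of the 6 genes passed, Grm3, where 487 of all genes (3.05%) did. The EtOH and Ctrl ranges overlapped for 6 of 6 receptor genes, as did those of all but 0.00626% of genes. By direction 5 were higher and 1 was lower, with a median log2 fold change of 0.06 beside -0.0030 over all genes tested.

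Grm3, the group II receptor that also responds to the peptide transmitter N-acetylaspartylglutamate, had the smallest p of the family. It ran from 6.74 to 9.74 FPKM with a median of 8.15 in Ctrl mice, from 7.47 to 11.02 FPKM with a median of 9.30 in EtOH mice, and from 6.62 to 9.34 FPKM with a median of 8.66 in EtOH-UA mice. Of the 7 EtOH mice, 6 lay above the Ctrl median, and the EtOH mouse with the lowest value was also the one with the highest summed FPKM of its group. The means were 8.20 ± 1.11 (SD, n = 9), 9.37 ± 1.27 (SD, n = 7) and 8.20 ± 0.963 FPKM (SD, n = 7). The log2 fold change of EtOH against Ctrl was 0.19 (SE 0.09, 95% confidence interval 0.00164 to 0.38), at an unadjusted p of 0.0482, an adjusted p of 0.999 (limma) and a two-sided exact permutation p of 0.0693. Leaving out 1 mouse at a time moved the limma p between 0.0133 and 0.122, and 8 of the 23 such fits stayed under 0.05, so that this value depended on which mice were included. The largest p came without the EtOH mouse with the highest Grm3, and the smallest without the EtOH mouse with the lowest.

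Grm5, which drives the Gq pathway at postsynaptic sites, ran from 37.54 to 54.64 FPKM (median 42.39) in Ctrl mice, from 32.01 to 54.75 FPKM (median 48.15) in EtOH mice and from 33.25 to 52.48 FPKM (median 45.53) in EtOH-UA mice. The groups shared most of their range. Its log2 fold change in EtOH mice was 0.03 (SE 0.11, 95% confidence interval -0.19 to 0.25, exact permutation p = 0.736). Grm7, a release-restraining receptor of presynaptic active zones, was the steadiest of the family, with a coefficient of variation of 9.41%. It was 14.8 ± 1.05 FPKM in Ctrl (n = 9), 15.6 ± 1.73 FPKM in EtOH (n = 7) and 14.9 ± 1.56 FPKM in EtOH-UA mice (n = 7), and the EtOH against Ctrl log2 fold change was 0.07 with a confidence interval of -0.07 to 0.22 (exact permutation p = 0.253).

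Grm2, the presynaptic group II autoreceptor, ran from 5.93 to 13.54 FPKM (median 11.81) in Ctrl mice and from 9.82 to 13.27 FPKM (median 11.65) in EtOH mice. The Ctrl mouse at 5.93 FPKM was the one with the low granule cell score, and the other Ctrl mice began at 10 FPKM. The log2 fold change was 0.06 (SE 0.13, 95% confidence interval -0.21 to 0.32, exact permutation p = 0.851), and without that Ctrl mouse it was -0.05. Grm4 ran from 1.72 to 4.43 FPKM (median 2.63) in Ctrl and from 1.63 to 4.01 FPKM (median 3.0) in EtOH mice, a log2 fold change of 0.07 with an interval of -0.31 to 0.45 (exact permutation p = 0.774). Grm8 was the member with a negative log2 fold change, from 1.59 to 3.11 FPKM (median 2.75) in Ctrl and from 1.33 to 2.70 FPKM (median 2.35) in EtOH mice. None of the 7 EtOH mice lay above the Ctrl median of Grm8, but the log2 fold change of -0.12 had an interval of -0.46 to 0.22 (exact permutation p = 0.433). It was -0.012 without the EtOH mouse at 1.33 FPKM and -0.035 with array quality weights. The intervals of Grm4 and Grm8, the least abundant members, thus left room for changes that these samples could not show.

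What urolithin A did on top of the alcohol diet was asked by setting EtOH-UA mice against EtOH mice. No receptor gene passed the adjusted threshold (limma, 0% of all genes did), none of the 6 passed an unadjusted p of 0.05 where 523 genes (3.27%) did, and none had groups that did not overlap, against 0.025% of genes. Of the 6 genes, 2 were higher and 4 lower, with a median log2 fold change of -0.07 beside 0.0033 over all genes. Grm3 had the smallest p here too, with a log2 fold change of -0.19 (SE 0.10, 95% confidence interval -0.39 to 0.01, unadjusted p = 0.0659 and adjusted p = 0.900 by limma, exact permutation p = 0.0775). This comparison shares the EtOH mice with the one against Ctrl, so its Grm3 value is not separate evidence from the higher EtOH mean. Grm2 ran from 9.39 to 14.67 FPKM (median 13.55) in EtOH-UA mice, and its lowest value came from the EtOH-UA mouse with a granule score of -0.81. Its log2 fold change against EtOH was 0.16 (SE 0.14, 95% confidence interval -0.12 to 0.44, exact permutation p = 0.117). Grm4 ran from 1.78 to 3.58 FPKM (median 2.30), a log2 fold change of -0.21 with the widest interval of the family, -0.61 to 0.20 (exact permutation p = 0.269). For Grm5 the log2 fold change was -0.07 (-0.31 to 0.16), for Grm7 -0.06 (-0.21 to 0.09) and for Grm8, which ran from 1.44 to 2.52 FPKM (median 2.28), 0.0046 (-0.36 to 0.37).

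Against Ctrl mice, EtOH-UA mice gave no receptor gene past the adjusted threshold (limma, 0% of all genes) and none past an unadjusted p of 0.05, which 492 genes (3.08%) passed, and the groups overlapped for all 6 genes, where 0.0125% of genes did not. Directions were even, 3 higher and 3 lower, with a median log2 fold change of -0.02 beside 0.0024 over all genes. Grm2 differed most, at 12.8 ± 1.89 FPKM (SD, n = 7) against 11.1 ± 2.36 FPKM (SD, n = 9), a log2 fold change of 0.22 (SE 0.13, 95% confidence interval -0.05 to 0.48, exact permutation p = 0.158). Without the EtOH-UA mouse of the granule score of -0.81 its limma p was 0.0336, and without the Ctrl mouse of the score of -1.17 it was 0.247. The means of Grm3 were both 8.20 FPKM, with a log2 fold change of 0.0035 (-0.19 to 0.19). The log2 fold changes of the other members were -0.13 for Grm4, -0.12 for Grm8, -0.04 for Grm5 and 0.01 for Grm7. Over the 18 exact tests of the 3 comparisons, none gave a p under 0.05.

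**Figure D2:**
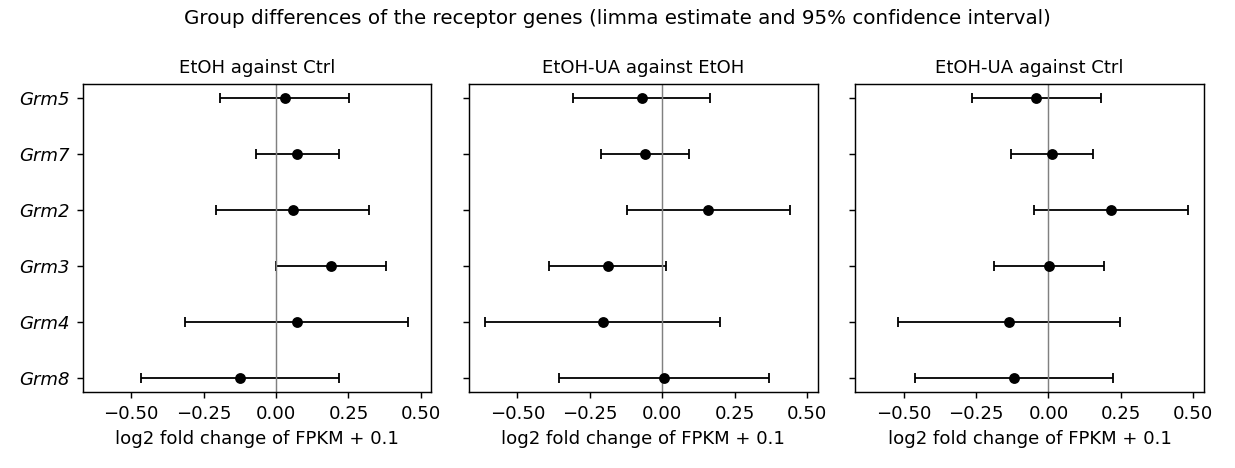
Log2 fold change of FPKM + 0.1 (horizontal axis) of each receptor gene in the 3 comparisons, with points for the limma estimates and bars for their 95% confidence intervals. The interval of Grm3 for EtOH against Ctrl, 0.00164 to 0.38, was the only one of 18 that did not include 0, before adjustment over all genes.

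The genes that carry the receptors' signals also gave no call between groups. A list of 60 genes, all tested, covered coupling to Gq, coupling to Gi/o and cAMP, scaffolds and partners, desensitization, and supply and clearance of glutamate and N-acetylaspartylglutamate. None passed the adjusted threshold in any of the 3 comparisons (limma). For EtOH against Ctrl 28 were higher and 32 lower, with a median log2 fold change of -0.0037 and 0 of 60 at an unadjusted p under 0.05. For EtOH-UA against EtOH 28 were higher and 32 lower, with 1 of 60 past the unadjusted threshold, which 3.27% of all genes passed. For EtOH-UA against Ctrl 25 were higher and 35 lower, with 2 of 60 past it, against 3.08% of all genes. These shares were near the background.

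The pair of genes of that list with the smallest p in each comparison is given with its values. Arrb2, which encodes β-arrestin 2, ran from 20.64 to 28.12 FPKM (median 21.93) in EtOH mice and from 23.05 to 30.51 FPKM (median 24.90) with urolithin A added, and the log2 fold change was 0.17 (SE 0.07, unadjusted p = 0.0212 and adjusted p = 0.900 by limma, exact permutation p = 0.0589). In EtOH against Ctrl mice its log2 fold change was -0.09 and that of Grk5, a receptor kinase, 0.12, with limma p of 0.159 and 0.191. Grk3, another receptor kinase, was lower in EtOH-UA mice, at 26.8 ± 4.29 FPKM, than in EtOH mice, at 30.4 ± 3.15 FPKM (log2 fold change -0.19, limma p = 0.0563, exact permutation p = 0.0938), and than in Ctrl mice, at 30.9 ± 3.46 FPKM (-0.21, limma p = 0.0265, exact permutation p = 0.0510). Grip1, a synaptic scaffold, gave a difference of -0.11 on the log2 scale between EtOH-UA and Ctrl mice (limma p = 0.0498, exact permutation p = 0.0705). The adjusted p of each of these was 0.900 or above.

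Levels of partner genes lay on both sides of that of Grm5, the highest receptor gene. In Ctrl mice, Homer1, which tethers group I receptors to their effectors, was at 19.5 ± 2.63 FPKM and Homer2 at 10.5 ± 0.976 FPKM, against 45.6 ± 6.24 FPKM for Grm5. The Gi/o subunit gene Gnao1 was at 171 ± 5.61 FPKM and the Gq subunit gene Gnaq at 55.3 ± 5.98 FPKM. Slc17a7, the vesicular glutamate transporter of most hippocampal excitatory neurons, reached 436 ± 19.6 FPKM and Slc1a2, the main astrocytic glutamate transporter, 326 ± 36.3 FPKM, while Slc7a11, of the cystine-glutamate exchanger, was at 5.58 ± 0.957 FPKM (each SD, n = 9).

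How the members varied together was examined on deviations from group means, which set the group differences aside. Of 15 pairs over 23 mice, 14 had a positive Pearson r, 4 passed an adjusted permutation p of 0.05, and 2 passed for both Pearson's r and Spearman's rho. Over all 23 mice Grm3 and Grm4 moved together most closely, with r = 0.69 (p = 0.00056, adjusted p = 0.0084) and rho = 0.73 (adjusted p = 0.00465), by permutation within groups. Without the 2 mice farthest from the median, r was 0.68, and in the 9 Ctrl mice alone it was 0.76. Grm4 and Grm8 gave r = 0.60 (adjusted permutation p = 0.0399) and rho = 0.69 (adjusted p = 0.00773), with 0.61 without the 2 farthest mice and 0.69 in Ctrl mice. Grm3 and Grm7 (r = 0.54, adjusted permutation p = 0.0431) passed for Pearson's r but not for rho, at 0.50 with an adjusted p of 0.0520. Grm5 and Grm7 (r = 0.60, adjusted permutation p = 0.0399) likewise had a rho of 0.48 with an adjusted p of 0.0546, and in Ctrl mice alone their r was 0.03. Without the 3 libraries that stood apart, these r values were 0.55 and 0.56, with adjusted permutation p of 0.0723 and 0.0835. In the same subset Grm2 and Grm4 had the highest r of all pairs, 0.73 (adjusted permutation p = 0.0168), above the 0.66 of Grm3 and Grm4 (adjusted p = 0.0230). Over all mice Grm2 and Grm4 gave r = 0.47 (adjusted permutation p = 0.0833) and rho = 0.60 (adjusted p = 0.0229). The group II pair, Grm2 and Grm3, gave r = 0.36 (adjusted permutation p = 0.230).

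Grm8 did not spread evenly. In 5 mice (3 Ctrl, 1 EtOH and 1 EtOH-UA) it lay between 1.33 and 1.65 FPKM, and in the other 18 between 1.89 and 3.11 FPKM. This split was made after the values were seen, and on Grm8 itself. Within the 18 mice, Grm8 and Grm4 gave r = 0.57 and rho = 0.41 (permutation p = 0.0288 for r, not adjusted). The relation of Grm8 with granule cell markers within the same 18 is given below.

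**Figure D3:**
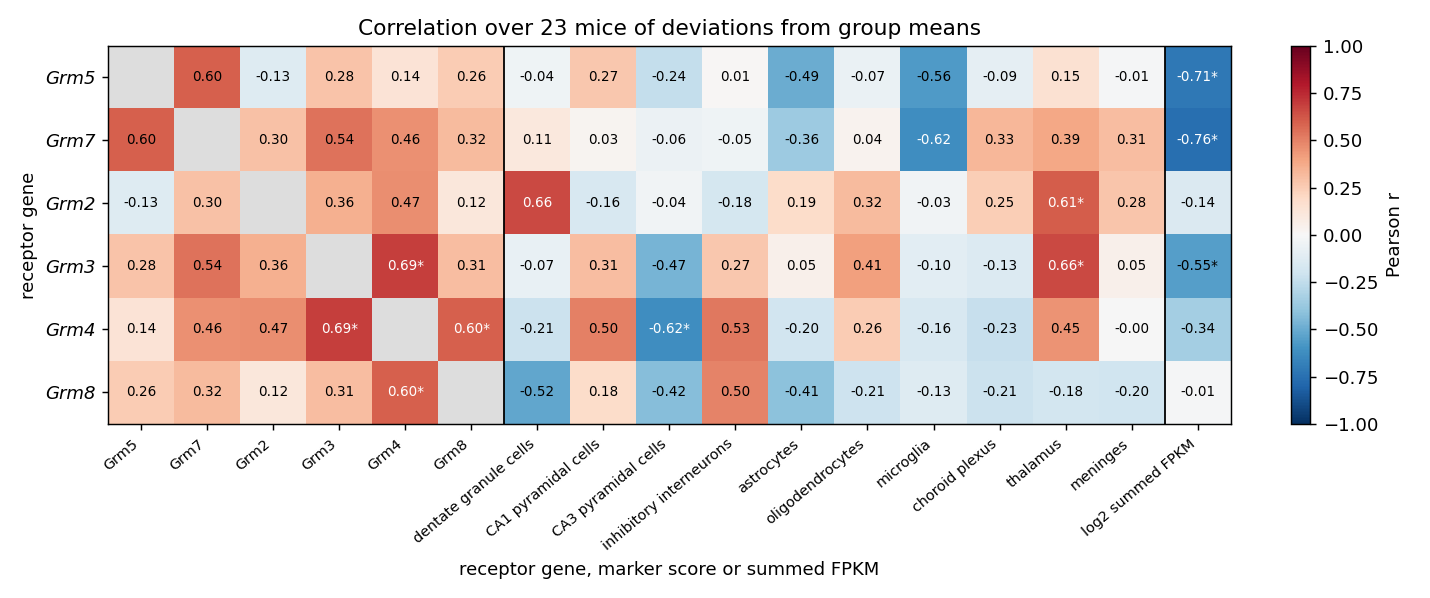
Pearson r, by color and number, of each receptor gene (rows) with the other receptor genes, with 10 marker scores and with log2 summed FPKM (columns), over deviations from group means in 23 mice. An asterisk marks pairs whose Pearson and Spearman adjusted permutation p are both under 0.05, such as Grm3 with Grm4 at 0.69 and Grm7 with summed FPKM at -0.76.

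Bulk tissue cannot tell fewer cells of a type from less RNA per cell, so the receptors were set beside markers of hippocampal cell types and of neighbouring tissue in 60 relations. Both group II receptors followed the thalamus score (Tcf7l2, Prkcd, Ramp3, Rgs16, Synpo2 and Plekhg1). For Grm3, r was 0.66 and rho 0.69 (adjusted permutation p = 0.0321 and 0.0222), with 0.58 without the 2 farthest mice and 0.61 in the Ctrl mice. For Grm2, r was 0.61 and rho 0.62 (adjusted permutation p = 0.0390 and 0.0325), with 0.56 and 0.64 in the same subsets. Without the 3 libraries that stood apart, r was 0.65 for Grm3 (adjusted permutation p = 0.0300) and 0.58 for Grm2 (adjusted permutation p = 0.0734). The lean was not limited to group II. Over all mice r was 0.45 for Grm4 and 0.39 for Grm7 (adjusted permutation p = 0.167 and 0.270), and 0.65 for Grm7 in Ctrl mice. For Grm5 and Grm8 it was 0.15 and -0.18 over all mice. The summed level of the 6 thalamus markers ran from 14.27 to 21.17 FPKM in Ctrl, from 16.27 to 24.32 FPKM in EtOH and from 16.21 to 26.09 FPKM in EtOH-UA mice, none of its markers was at 0, and its part in the receptor levels was not tested.

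Grm4 ran against the CA3 pyramidal cell score (Bok, Iyd, Grik4, Coch, Nectin3 and Cpne4), with r = -0.62 and rho = -0.60 (adjusted permutation p = 0.0321 and 0.0339), -0.57 without the 2 farthest mice and -0.66 in Ctrl mice. The summed CA3 markers ran from 91.49 to 135.07 FPKM in Ctrl, from 87.35 to 130.1 FPKM in EtOH and from 90.99 to 184.45 FPKM in EtOH-UA mice, with none at 0. Under upper-quartile scaling that correlation of Grm4 was -0.58, with an adjusted permutation p of 0.0732. Grm8 also ran against the CA3 score, at r = -0.42 (adjusted permutation p = 0.175) and -0.79 in Ctrl mice (adjusted permutation p = 0.368). Without the libraries that stood apart its r was -0.70 (adjusted permutation p = 0.0294). Grm4 gave r = 0.50 with CA1 pyramidal cell markers (adjusted permutation p = 0.0815), and 0.65 without those libraries (adjusted permutation p = 0.0300). Grm4 and Grm8 leaned the same way with inhibitory interneuron markers (Gad1, Gad2, Slc32a1, Sst, Pvalb and Lhx6), at r = 0.53 and 0.50, each with an adjusted permutation p of 0.0916 for r, and of 0.0339 and 0.0325 for rho values of 0.61 and 0.63.

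Grm2 gave a high correlation with the granule cell score, r = 0.66, but an adjusted permutation p of 0.0916, a rho of 0.20 and, without the 2 farthest mice, r = -0.01. The relation rested on those 2 mice, the Ctrl mouse at -1.17 and the EtOH-UA mouse at -0.81, which held the lowest Grm2 of their groups, 5.93 and 9.39 FPKM. Grm8 ran the other way, with r = -0.52 (adjusted permutation p = 0.0916) and rho = -0.61 (adjusted p = 0.0325), and -0.75 without the 2 farthest mice. Without the 3 libraries that stood apart, r was -0.80 (adjusted permutation p = 0.0096), though the Ctrl mouse among them was picked by its granule score. The 5 mice of low Grm8 all had granule scores above 0, from 0.13 to 0.55. In the other 18 mice the scores ran from -1.17 to 0.30. Within those 18 the relation was not seen, with r = 0.02 and rho = -0.17 (permutation p = 0.931 for r, not adjusted). These 18 were chosen on Grm8 itself, which narrows its range, and they include the mice at -1.17 and -0.81. The r of 0.02 therefore cannot show whether the inverse relation rested on the 5 mice of low Grm8. The summed granule markers ran from 48.26 to 135.41 FPKM in Ctrl, from 87.79 to 117.74 FPKM in EtOH and from 71.86 to 147.47 FPKM in EtOH-UA mice. With the granule score as a covariate, added after the data were seen, the log2 fold change of Grm2 for EtOH-UA against Ctrl was 0.11 in place of 0.22, and that of Grm8 -0.011 in place of -0.12.

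**Figure D4:**
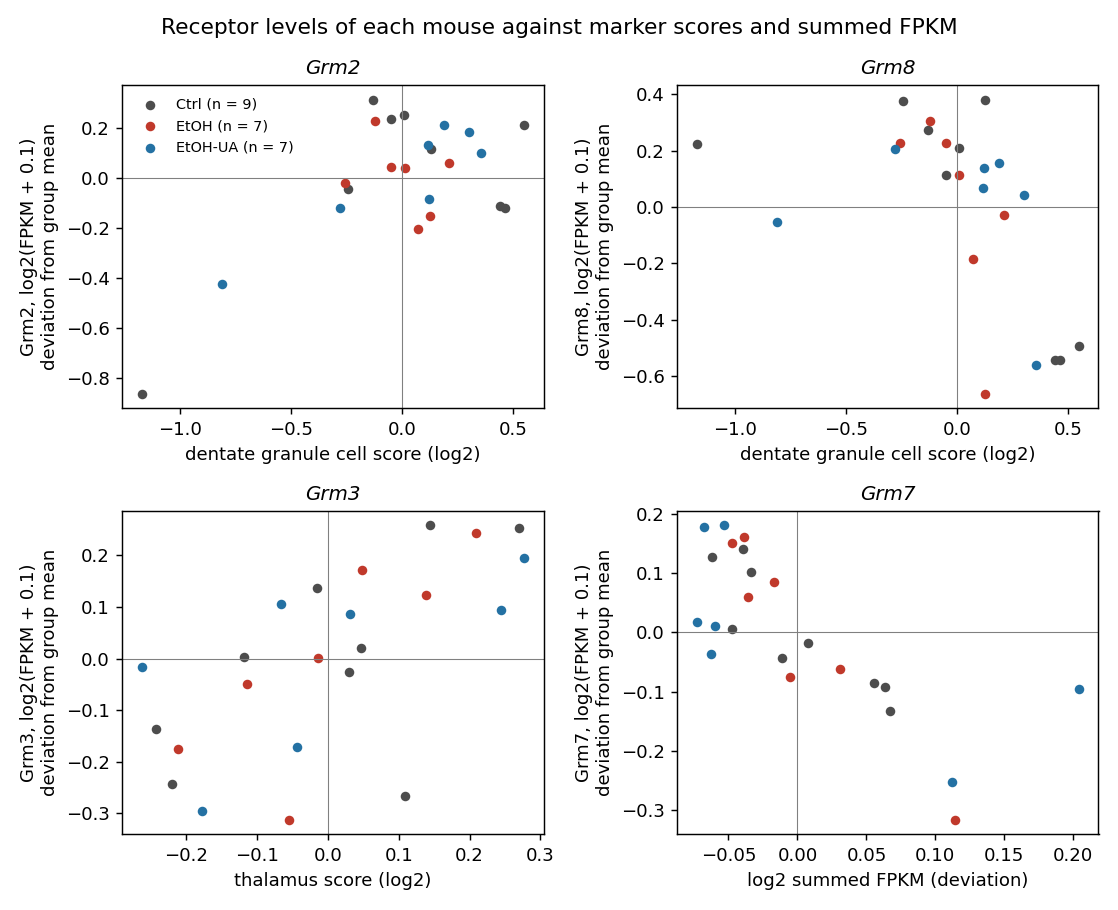
Deviation of log2(FPKM + 0.1) from the group mean (vertical axes) of Grm2 and Grm8 against the dentate granule cell score, Grm3 against the thalamus score and Grm7 against log2 summed FPKM, each point being 1 of 23 mice. The 2 mice at granule scores of -1.17 and -0.81 hold the Grm2 relation (r = 0.66, and -0.01 without them), while Grm7 fell along the whole range of summed FPKM (r = -0.76).

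Grm7, Grm5 and Grm3 were lower in mice with a higher summed FPKM. The summed FPKM of a mouse ran from 330456 to 361354 in the Ctrl, from 327896 to 366930 in the EtOH and from 333801 to 404609 in the EtOH-UA group. In 6 relations added after the data were seen, Grm7 fell with rising log2 summed FPKM (r = -0.76, p = 6e-05 and adjusted p = 0.00036 by permutation, rho = -0.78), with -0.80 without the 2 farthest mice and -0.88 in Ctrl mice. Grm5 gave r = -0.71 (adjusted permutation p = 0.00213, rho = -0.56), -0.51 without the 2 farthest and -0.18 in Ctrl mice. Grm3 gave r = -0.55 (adjusted permutation p = 0.0118, rho = -0.44), which was -0.31 without the 2 farthest and -0.27 in Ctrl mice. With the receptor values under upper-quartile scaling, r was -0.83 for Grm7, -0.77 for Grm5 and -0.65 for Grm3. Without the 3 libraries that stood apart, Grm7 kept an r of -0.83, while Grm5 gave -0.63 (adjusted permutation p = 0.0583) and Grm3 -0.49 (adjusted permutation p = 0.112). For Grm2 and Grm8 the r values over all mice were -0.14 and -0.01 (adjusted permutation p = 0.605 and 0.967). The EtOH mouse with the highest summed FPKM of its group, 366930, had the lowest Grm3, Grm5, Grm7 and Grm8 of that group, and the EtOH-UA mouse at 404609 the lowest Grm3, Grm4 and Grm5. What lay behind these relations was not tested. With the summed FPKM as a covariate, the log2 fold change of Grm3 for EtOH against Ctrl was 0.16 in place of 0.19.

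Each receptor had different genes nearest to it when 12903 genes averaging 1 FPKM or more were ranked by Pearson r over the same 23 mice, as a description without a test. Grm4 was most like Pamr1 (r = 0.94) and Asap1, an Arf GTPase-activating protein (0.91). Grm8 was most like the synaptotagmin gene Syt16 (0.87), the synaptic adhesion gene Lrrtm3 (0.87) and Adcy8, a calcium-stimulated adenylyl cyclase (0.86). Grm2 was nearest to Gfra2, the neurturin receptor (0.84), Scnn1a, an epithelial sodium channel subunit (0.84), and Nrep (0.83), and Grm3 to Bmp2k (0.82), Arap2 (0.80) and Hivep1 (0.80).

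For Grm5 and Grm7 the likeness was shared by many genes. Grm5 was most like Dnm1l, the GTPase of mitochondrial fission (r = 0.96), Sgip1, an endocytic adaptor (0.95), and Dzip3, a ubiquitin ligase (0.95), with 449 genes above r = 0.8 and 76 above 0.9. Grm7 was most like Dmxl2 (0.93), Pclo, an active zone scaffold (0.93), and Bdp1, of the RNA polymerase III machinery (0.93), with 300 genes above 0.8 and 22 above 0.9. By contrast only 3 genes reached 0.8 with Grm3, 8 with Grm2, 18 with Grm8 and 44 with Grm4. All mice share the table's scale, and the summed FPKM ran against Grm5 and Grm7 as given above.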

How the data were processed

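Hippocampal RNA-seq of 23 mice was used as deposited, in FPKM to 2 decimals, 1 column per mouse. According to the methods, the authors sequenced poly(A)+ RNA as paired-end reads, filtered them with SOAPnuke, aligned them to mm10 with Bowtie2 and quantified FPKM with RSEM, whereas the submitters' processing notes list HISAT2 2.1.0, Bowtie2 2.2.5, RSEM 1.2.8, StringTie and DESeq, and the labels total RNA. Groups came from the sample labels. The column names carry no replicate number, so mice are named by group only.

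FPKM are not counts, so log2(FPKM + 0.1) was tested with limma 3.58.1 (R 4.3.3), in 1 model of the 3 groups with a trended prior, over 15985 genes averaging 0.1 FPKM or more, with Benjamini-Hochberg adjustment over them. Fold changes on this scale understate those of low genes. Two-sided exact permutation tests of mean FPKM were run per receptor gene, without adjustment over these genes. Correlations used 100000 permutations within groups (SciPy 1.17.1), adjusted per family of relations. Scripts were tested on simulated data.

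All 6 members are named, with the 3 genes most like each by r (1 of those of Grm4 is not reported here), the 2 pathway genes of smallest p per comparison, and Slc and Homer genes for their levels. Gnao1 and Gnaq were named after their values were seen. The members and lists were chosen with earlier results of these data known. Alternatives were other pseudocounts, filters, scalings and weights, fits of 2 groups only, and leaving out each mouse; covariates, subsets of libraries, and the summed FPKM relations were added after seeing the data.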

Additional observations from a re-analysis of the deposited data

Results flagged for a closer look

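In 3 of 18 sets of values, 6 genes in 3 groups, the mouse at an end lay far from the rest of its group, each time the lowest. For normal values chance gives about 1 in 20 per set, counting either end. The 18 sets share mice and are not independent, so the count cannot be set against that rate. Grm2 in Ctrl mice had its lowest value at 5.93 FPKM and the next at 10 FPKM, a gap of 0.632 of the group's range on the log2 scale, and this was the mouse with the lowest granule cell markers. Grm5 in EtOH mice had 32.01 FPKM in the mouse with the highest summed FPKM of that group and 43.75 FPKM in the next, a gap of 0.582 of the range. Grm8 in EtOH-UA mice had 1.44 FPKM in 1 mouse and 2.09 FPKM in the next, a gap of 0.663 of the range.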

How the results depend on the processing

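No receptor gene passed the adjusted threshold under any alternative, and of all genes 1 did for EtOH against Ctrl with array quality weights. Leaving out each mouse in turn gave 0 to 1 of all genes in each comparison, where the full data gave 0. No paired analysis was possible because the columns carry no replicate numbers. Signs of log2 fold changes turned only where the estimate from the full data lay between -0.072 and 0.071. With the summed FPKM as a covariate, the log2 fold change of Grm5 was -0.024 for EtOH against Ctrl, 0.038 for EtOH-UA against EtOH and 0.014 for EtOH-UA against Ctrl, and that of Grm7 0.011 for EtOH-UA against EtOH. Without the 2 EtOH-UA mice of highest summed FPKM, Grm7 and Grm5 were 0.0092 and 0.051 against EtOH, and Grm5 0.081 against Ctrl. Array weights gave 0.086 for Grm5 in EtOH-UA against Ctrl and -0.095 for Grm8 in EtOH-UA against EtOH, and upper-quartile scaling -0.015 for the latter. The cause was not tested.

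Leaving out each mouse moved Grm2 from -0.050 to 0.097, Grm5 from -0.011 to 0.12 and Grm4 from -0.013 to 0.20 for EtOH against Ctrl, Grm8 from -0.11 to 0.098 for EtOH-UA against EtOH, and Grm7 from -0.017 to 0.055, Grm5 from -0.084 to 0.025 and Grm3 from -0.030 to 0.053 for EtOH-UA against Ctrl. In the 9 Ctrl mice alone, 0 receptor pairs and 0 marker relations passed, with fewer mice, and 1 relation with summed FPKM (Grm7). Without the 3 mice that stand apart, 7 marker relations passed where 3 did before, 1 with summed FPKM, and the r of Grm2 with the granule score was -0.14. Depth limits the precision of Grm8 most under either transcript length.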
